A study of Homo sapiens with 10 samples.

Results

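The genes described here encode carriers, receptors and binders of folate, vitamin B12 and thiamine, and enzymes that set how folate is kept in the cell. They are 10 genes of the 17492 named on the array: the folate carriers SLC19A1 and SLC46A1, the folate receptors FOLR1 and FOLR2, the enzymes FPGS and GGH, which add and remove the glutamates of folate, the vitamin B12 binders TCN1 and TCN2, and the thiamine carriers SLC19A2 and SLC19A3. They were found by symbol in the annotation of the array's probe sets, and each had 1 probe set. The genes were picked as a group with the difference between the groups below already known, and TCN1 and SLC19A1 are among its extremes. Their levels and differences are therefore given as a description, without p values.

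The cells were A375, an established human melanoma line, grown in medium with glutamine and fetal bovine serum. Control cells had no doxycycline, and treated cells were plated with doxycycline at 2 µg/ml, and both were frozen on day 4. Each group had 5 Clariom S arrays, called biological replicas in the labels, which do not say whether they came from separate cultures. A p-value therefore sets the difference between the groups only against the scatter among these samples, and that scatter may be technical. Omomyc, a dominant-negative form of MYC, is named in the title of the series, but the labels describe neither the construct nor whether the line is 1 clone. Among the 10 arrays none is labelled as a doxycycline control lacking Omomyc, so an effect of the drug itself cannot be told apart.

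Folates are vitamins that carry one-carbon units for the synthesis of purines, thymidylate and methionine. SLC19A1, the reduced folate carrier, exchanges folates for anions at neutral pH, SLC46A1 is a proton-coupled carrier that works at acid pH, and the folate receptors bind folate at the cell surface and bring it in by endocytosis. FPGS adds glutamates that trap folate inside the cell, and GGH removes them. Vitamin B12 travels bound to proteins: TCN2 (transcobalamin) delivers it to cells through the receptor CD320, TCN1 (haptocorrin) is a secreted binder best known from saliva and neutrophil granules, and CBLIF (intrinsic factor) is the related binder of the stomach. SLC19A2 and SLC19A3 belong to the family of SLC19A1 but carry thiamine, not folate, so the group is wider than folate and vitamin B12.

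Signal is given in log2 units after RMA, where 1 unit is a 2-fold difference. The arrays had medians of 5.02 to 5.10 and first quartiles of 2.80 to 2.94. Correlations over all probe sets were 0.993 to 0.996 between control arrays, 0.990 to 0.996 between doxycycline arrays and 0.970 to 0.976 between the groups. Among markers of the labelled cell type, MITF, SOX10 and S100B lay above the median of every array, whereas PMEL, MLANA, TYR and TYRP1, the pigment genes, lay under the first quartile on all 10 arrays. Of these 7 markers 3 rose, MITF (log2 difference 1.21 ± 0.08, limma adjusted p = 8.34e-09), S100B (0.26 ± 0.08, adjusted p = 0.0193) and TYR (0.23 ± 0.08, adjusted p = 0.0431), and none fell. Their summed log2 signal was 32.05 to 32.55 in control and 33.6 to 34.6 with doxycycline, and its part in the results below was not tested. MYC, whose probe set may also read a transcript of Omomyc, which was not tested, rose from 6.06 ± 0.12 to 6.68 ± 0.18 (SD, n = 5, limma adjusted p = 1.63e-04).

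With doxycycline, TCN1 was 8.53-fold higher, SLC19A1 7.33-fold lower, and the next largest measured difference was 1.92-fold, for FOLR1. Control signal of FOLR1 lay near the background, which can compress a fold difference, and this was not tested. TCN1, FOLR1 and TCN2 were higher and the other 7 lower on average. In the limma fit over all probe sets, with Benjamini-Hochberg adjustment and a call at an adjusted p under 0.05, 3 of the 10 were called higher and 5 lower, beside 38.1% of all 18569 probe sets called in either direction (20.9% higher and 17.2% lower). The median log2 difference of the 10 was -0.31 against 0.04 over all probe sets. At an adjusted p under 0.01 the same 8 genes were called, beside 28.3% of all probe sets. The groups did not overlap for 7 of the 10, beside 28.6% of all probe sets, with doxycycline above for 2 (14.9% of all) and below for 5 (13.6%). These counts describe a group chosen on this same contrast.

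**Figure D1:**
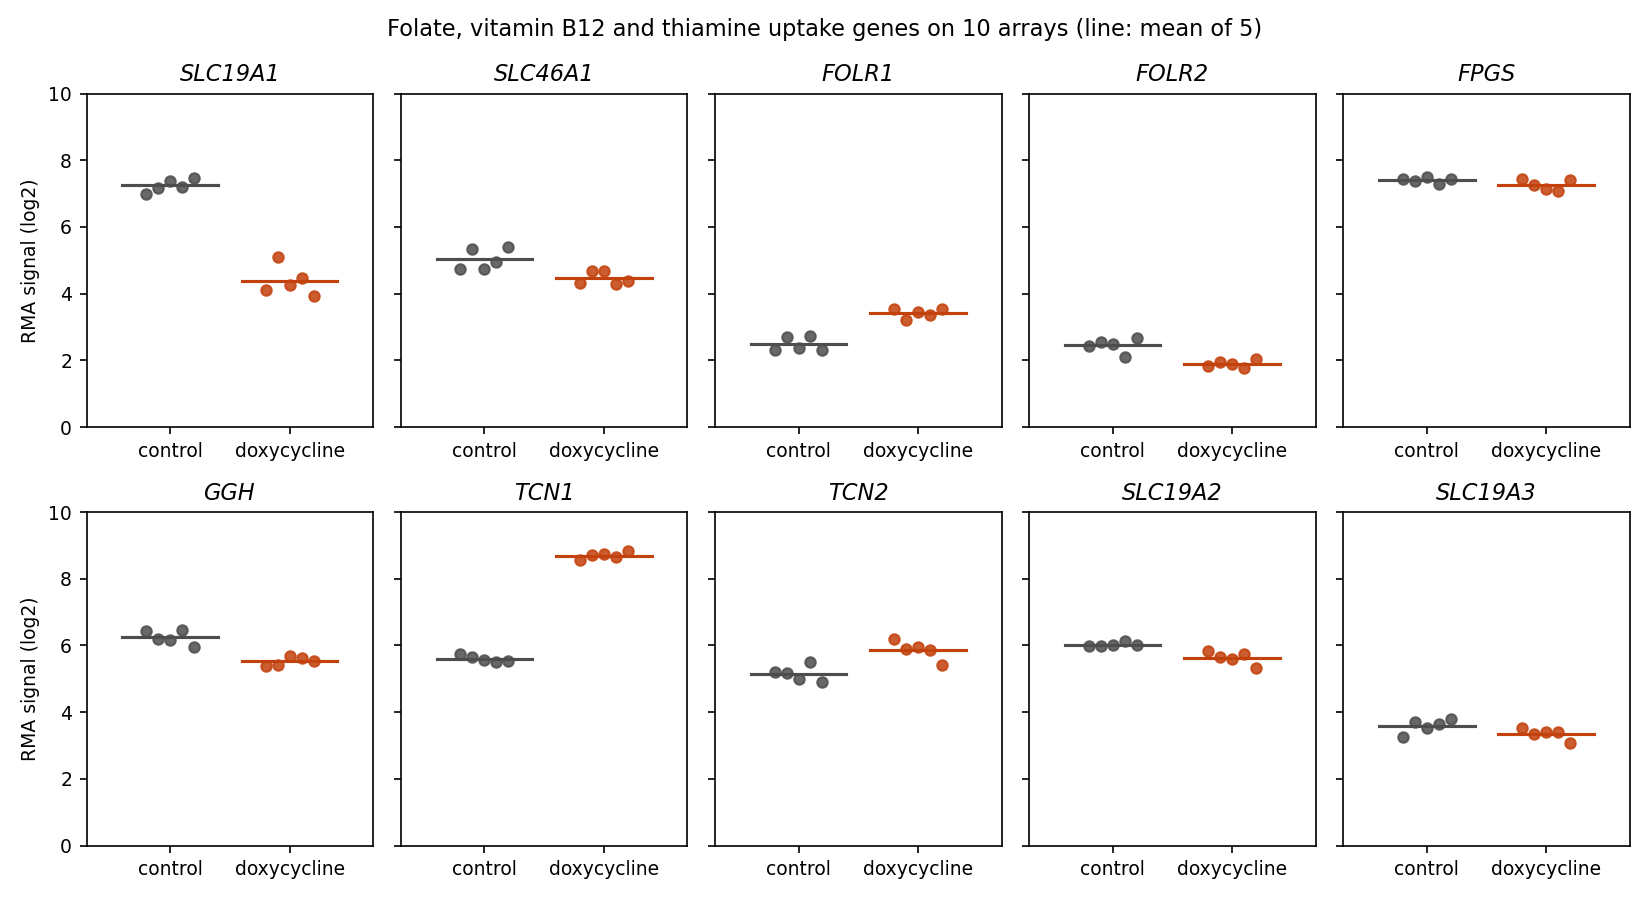
RMA signal (log2, vertical axis) of the 10 genes on the 5 control and 5 doxycycline arrays, one point per array in replicate order, with a line at each group's mean. TCN1 (5.60 to 8.69) and SLC19A1 (7.24 to 4.37) stand apart from the other genes by the distance between the groups.

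The upstream sequence of TCN1 is shown because it had the largest difference, with that of CBLIF, the next gene on the chromosome, which rose. Both are RefSeq windows of GRCh38.p14 on the minus strand, the 250 bases before the transcription start, read 5′ to 3′. Capitals mark the letters of the composite motif TGATGNAA on either strand. TCN1 lies at chr11:59866488-59866737 and CBLIF at chr11:59845500-59845749.
TCN1: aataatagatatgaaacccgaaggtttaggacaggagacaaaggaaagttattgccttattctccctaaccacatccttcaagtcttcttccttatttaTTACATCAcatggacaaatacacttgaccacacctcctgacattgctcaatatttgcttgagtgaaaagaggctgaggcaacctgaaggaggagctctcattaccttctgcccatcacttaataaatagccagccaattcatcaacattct
CBLIF: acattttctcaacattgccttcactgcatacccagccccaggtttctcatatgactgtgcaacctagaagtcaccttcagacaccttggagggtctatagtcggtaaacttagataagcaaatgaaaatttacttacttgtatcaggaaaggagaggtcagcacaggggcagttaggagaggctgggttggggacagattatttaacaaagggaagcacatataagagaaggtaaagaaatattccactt

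The motif search covered both strands of windows of 300 bases, from 250 before to 50 after a start. The E-box CACGTG, which MYC and MAX bind, was found in 7.26% of 35116 RefSeq windows, and its variant CACGCG in 11.4%. The composite motif TGATGNAA, of the kind bound by ATF4 with C/EBP factors, was found in 3.62%, and the AP-1 motif TGACTCA in 4.95%. None of these motifs overlapped another in the windows of the genes described here. The TCN1 window held TGATGNAA once, on the opposite strand with its first base at position -151, and neither the TCN1 nor the CBLIF window held CACGTG. The GC content of these windows was 43.0% for TCN1 and 44.0% for CBLIF, against a median of 58.7% over all windows.

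RefSeq windows were matched for 6 of the 10 genes, 12 windows in all, of which 2 held CACGTG, 5 held CACGCG and 1 held TGATGNAA. The CACGTG matches were in the third of the 4 windows of SLC19A1, whose signal was far lower with doxycycline, and in the third window of FPGS, whose groups overlapped. The 30 bases around each are shown with the motif in capitals, for SLC19A1 from chr21:45541797-45541826 on the minus strand and for FPGS from chr9:127803093-127803122 on the plus strand.
SLC19A1: ttcgcgcccaggCACGTGttgcttcgggac
FPGS: tgggcgcgacgaCACGTGggcctgcgctga

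The motif started 33 bases after the start of that SLC19A1 transcript, and at position -76 for FPGS. The second SLC19A1 window, with 82.3% GC, held CACGCG 3 times, and the SLC46A1 window held it once. The other 3 windows with CACGCG were those of FPGS, the first 2 of which overlap and hold the same site. A match in these windows is a description of the letters, and binding was not measured here.

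SLC19A1 (chromosome 21, probe set TC2100008424.hg.1) is the main folate and antifolate carrier of most cells. Its signal on control arrays 1 to 5 was 6.99, 7.18, 7.38, 7.20 and 7.46, and on doxycycline arrays 1 to 5 it was 4.10, 5.11, 4.27, 4.46 and 3.93. All 5 doxycycline arrays lay below all controls, with 1.88 log2 units between the nearest arrays, and doxycycline array 2 was the highest of its group. The log2 difference was -2.87 ± 0.18 (SE, n = 5 per group), the 23rd lowest of 18569. The doxycycline arrays spread more (SD 0.46) than the controls (SD 0.19), and 1.9% of all probe sets had a larger residual SD than SLC19A1, so its size is less exactly known than that of TCN1.

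SLC46A1 (chromosome 17), the proton-coupled carrier that takes up dietary folate in the gut, was also lower. Control arrays gave 4.75, 5.34, 4.76, 4.96 and 5.41, and doxycycline arrays 4.32, 4.69, 4.67, 4.30 and 4.39. The groups were separated by only 0.06 log2 units, since doxycycline arrays 2 and 3 came close to control arrays 1 and 3. The log2 difference was -0.57 ± 0.14, a 1.48-fold lower signal.

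The adjacent receptor genes FOLR1 and FOLR2 on chromosome 11 went opposite ways at low signal. FOLR1, the receptor abundant in several carcinomas, read 2.30, 2.70, 2.37, 2.74 and 2.32 in control and 3.55, 3.20, 3.46, 3.37 and 3.54 with doxycycline. All 5 control arrays lay under their first quartile of signal and no doxycycline array did, and the log2 difference was 0.94 ± 0.11. FOLR2, the receptor typical of macrophages, read 2.45, 2.56, 2.48, 2.11 and 2.67 in control and 1.84, 1.96, 1.90, 1.78 and 2.03 with doxycycline. Every array of either group lay under its first quartile for FOLR2, and the log2 difference was -0.55 ± 0.10. The nearest arrays of the groups were 0.47 log2 units apart for FOLR1 and 0.08 for FOLR2. Signal this close to the background can compress fold differences. The receptor genes are also similar in sequence, so their probe sets may share hybridisation. Neither was tested.

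Markers of other cells known for these receptors were read on the same arrays. Of 8 macrophage markers 1 rose (CD14, log2 difference 0.51 ± 0.09, limma adjusted p = 2.83e-04) and none fell, and their summed log2 signal was 24.9 to 26.0 in control and 24.5 to 27.0 with doxycycline. Of 6 epithelial markers KRT5 rose (0.39 ± 0.12, adjusted p = 0.0219) and KRT8 fell (-0.84 ± 0.08, adjusted p = 6.67e-07). KRT5 lay under the first quartile on 4 control and 3 doxycycline arrays, and its groups overlapped. KRT8 (7.78 in control, 6.94 with doxycycline) and KRT18 (9.20 and 9.09, not called) were well above the array medians, while EPCAM and CDH1 lay under the first quartile on all 10 arrays. The summed log2 signal of all 6 epithelial markers was 26.2 to 26.8 in control and 25.5 to 26.7 with doxycycline. The part of the macrophage and epithelial markers in the receptor values was not tested.

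FPGS (chromosome 9), which lengthens the glutamate tail of folates, overlapped between the groups. Its signal was 7.42, 7.37, 7.50, 7.28 and 7.45 in control and 7.44, 7.26, 7.13, 7.09 and 7.40 with doxycycline, so doxycycline arrays 1 and 5 sat within the control range. The log2 difference was -0.14 ± 0.09.

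GGH (chromosome 8), the lysosomal hydrolase that shortens that tail, was lower on every doxycycline array. Control arrays read 6.43, 6.19, 6.16, 6.46 and 5.96, and doxycycline arrays 5.40, 5.41, 5.68, 5.64 and 5.52. The difference was -0.71 ± 0.11, or 1.64-fold, with 0.28 log2 units between the nearest arrays.

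TCN1 (chromosome 11, probe set TC1100010992.hg.1) had the widest gap between the groups of the 10 genes. Signal was 5.74, 5.65, 5.58, 5.51 and 5.53 in control and 8.56, 8.70, 8.73, 8.66 and 8.82 with doxycycline. The 2.82 log2 units between the nearest arrays of the groups far exceeded the spread within either (SD 0.10 and 0.09). The log2 difference was 3.09 ± 0.08, the fifth highest of all probe sets.

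TCN1 is known as a product of neutrophil granules, so markers of these cells were read beside it. Of 7 measured markers of neutrophils and their granules, 5, among them LTF, CAMP and S100A9, lay under the first quartile on all 10 arrays. Of the 7, 1 fell, S100A9 (limma adjusted p = 0.0188), with overlapping groups, and none rose. Their summed log2 signal was 15.5 to 16.2 in control and 15.1 to 15.7 with doxycycline, most of it at background, and its part in the TCN1 result was not tested. In bulk RNA of this kind, more expressing cells and more RNA per cell cannot be told apart.

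TCN2 (chromosome 22), the carrier that delivers vitamin B12 to tissues, was higher by a smaller amount. It read 5.20, 5.16, 4.98, 5.52 and 4.91 in control and 6.19, 5.90, 5.96, 5.86 and 5.43 with doxycycline. Doxycycline array 5 lay below control array 4, so the groups overlapped, and the difference was 0.71 ± 0.14, or 1.64-fold. TCN2 is also made by endothelium, and among 5 endothelial markers KDR rose (log2 difference 1.18 ± 0.12, adjusted p = 1.92e-06), while PECAM1, CDH5 and TEK were under the first quartile on all arrays and VWF did not pass the test. The summed log2 signal of these 5 was 14.8 to 16.2 in control and 16.4 to 18.2 with doxycycline, and its part in the TCN2 result was not tested.

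The thiamine carriers differed little. SLC19A2 (chromosome 1), the broadly expressed carrier, read 5.98, 5.98, 6.02, 6.14 and 6.02 in control and 5.83, 5.67, 5.61, 5.74 and 5.31 with doxycycline. All doxycycline arrays were lower, array 5 most, and the difference was -0.40 ± 0.10. SLC19A3 (chromosome 2) read 3.25, 3.71, 3.52, 3.65 and 3.79 in control and 3.54, 3.34, 3.42, 3.40 and 3.06 with doxycycline, a difference of -0.23 ± 0.11 between overlapping groups. Within the SLC19 family, the folate carrier was thus 7.33-fold lower and its thiamine-carrying relatives 1.32-fold and 1.18-fold lower.

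**Figure D2:**
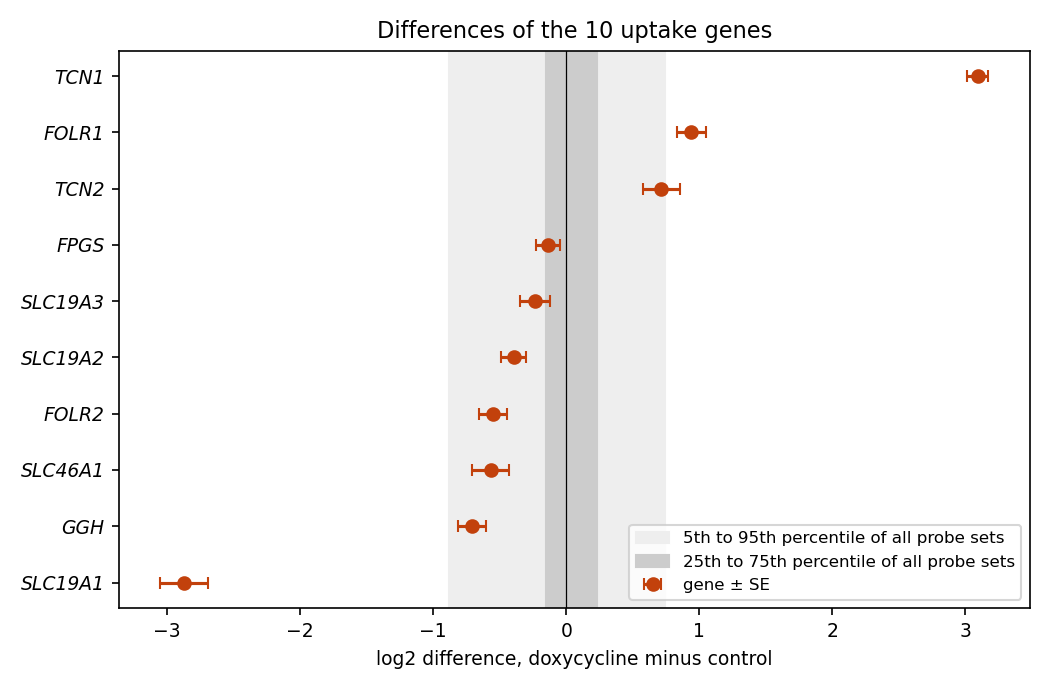
Log2 difference of doxycycline minus control (horizontal axis) for the 10 genes, with bars of 1 SE, over bands that hold the central 50% and 90% of all 18569 probe sets. TCN1, FOLR1 and SLC19A1 lie outside the wider band, which runs from -0.88 to 0.74, and TCN2, at 0.71, is just inside it.

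Genes of the same pathways that are not among the 10 were tested in the fit over all probe sets. The 4 lists were written with the broad results of these data known. Of 47 measured genes 10 rose and 17 fell, beside background shares of 20.9% and 17.2%, and 20 did not pass.

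Of 13 genes for vitamin B12 binding, receptors and handling, 3 were higher and 3 lower, near the 20.9% and 17.2% of all probe sets. Their median log2 difference was -0.04. CBLIF rose from 4.15 ± 0.31 to 5.34 ± 0.14 (SD, n = 5), a 2.28-fold difference (limma adjusted p = 4.15e-06). MMACHC, which strips the incoming cobalamin of its upper ligand (0.47 ± 0.10, adjusted p = 0.00124), and LMBRD1, needed for export of cobalamin from the lysosome (0.33 ± 0.08, adjusted p = 0.00412), rose. CD320, the receptor for TCN2 with its cargo, fell from 6.82 ± 0.17 to 5.89 ± 0.13 (adjusted p = 2.43e-06), so the carrier TCN2 was higher and its receptor lower on the same arrays.

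MMAB, which makes adenosylcobalamin, also fell (-0.37 ± 0.10, adjusted p = 0.0104). CUBN, part of the gut receptor for CBLIF, fell by 0.22 at a signal under the first quartile (adjusted p = 0.0396), and the call was lost without any one of control arrays 1, 3, 4 and 5 or doxycycline arrays 1, 2 and 4, with adjusted p values of 0.0512 to 0.0969. It was also lost with median centring (adjusted p = 0.0779), trend and robust moderation (adjusted p = 0.0551), array weights (adjusted p = 0.0564) and the replicate number as a block (adjusted p = 0.0846). The cobalamin-dependent enzymes did not pass: methionine synthase MTR had a log2 difference of 0.07 ± 0.11 (adjusted p = 0.655) and methylmalonyl-CoA mutase MMUT 0.21 ± 0.09 (adjusted p = 0.0887). MTRR, which reactivates MTR, had -0.06 ± 0.07 (adjusted p = 0.573).

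Among 10 other folate receptors, transporters and exporters, 1 rose and 2 fell, beside 20.9% and 17.2% of all probe sets. Their median log2 difference was 0.03. ABCC4, an exporter of folates and cyclic nucleotides, fell from 6.85 ± 0.13 to 5.48 ± 0.32 (SD, n = 5, adjusted p = 8.83e-07), and ABCG2, an exporter of many drugs, fell by 0.49 (adjusted p = 1.91e-04). The signal of ABCG2 was near the background, under the first quartile on 3 control and all 5 doxycycline arrays. ABCC3, another organic anion exporter, rose (0.52 ± 0.09, adjusted p = 3.69e-04). SLC25A32, the carrier that takes folate into mitochondria, had a log2 difference of -0.12 ± 0.08 (limma adjusted p = 0.261), and FOLR3, a secreted receptor, -0.11 ± 0.10 (adjusted p = 0.39).

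Enzymes that use folate were mostly lower: 10 of 14 fell and 1 rose, beside 17.2% and 20.9% of all probe sets. Their median log2 difference was -0.53. MTHFD2 and ALDH1L2, which act on folate in mitochondria, were 12.6-fold and 8.55-fold lower, SHMT2, which loads a carbon from serine, 2.68-fold, and ATIC, which uses formyl-folate for purines, 2.86-fold, with adjusted p values of at most 6.41e-08. DHFR2, a relative of dihydrofolate reductase, rose by 0.30 (adjusted p = 0.0311). That call was lost without any one of control arrays 1, 3, 4 and 5 or doxycycline arrays 1, 3 and 5, with adjusted p values of 0.0523 to 0.0814, and with the replicate number as a block (adjusted p = 0.0559). MTHFD2L, counted among the 10 that fell, lost its call with that block (adjusted p = 0.0743) and without any one of control arrays 2 to 5 or doxycycline arrays 2, 4 and 5 (adjusted p values of 0.0536 to 0.0833).

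In the thiamine list 5 of 10 rose and 2 fell, beside 20.9% and 17.2% of all probe sets. The median log2 difference of the list was 0.17. HACL1, a peroxisomal lyase that uses thiamine pyrophosphate, rose 2.03-fold, from 9.47 ± 0.12 to 10.49 ± 0.04 (SD, n = 5, adjusted p = 7.87e-08). BCKDHB, of the branched-chain keto acid dehydrogenase, rose (0.89 ± 0.14, adjusted p = 8.87e-05), as did the thiamine triphosphatase THTPA (0.46 ± 0.11, adjusted p = 0.00287), the putative thiamine carrier SLC35F3 (0.46 ± 0.11, adjusted p = 0.00417) and OGDH (0.27 ± 0.09, adjusted p = 0.029). The OGDH call was lost without control array 1 or 2 or doxycycline array 1 or 2, with adjusted p values of 0.0582 to 0.0689, and with the replicate number as a block (adjusted p = 0.0702). Transketolase, TKT, fell (-0.78 ± 0.08, adjusted p = 2.92e-06), and so did BCKDHA, the partner subunit of BCKDHB (-0.31 ± 0.09, adjusted p = 0.0118).

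**Figure D3:**
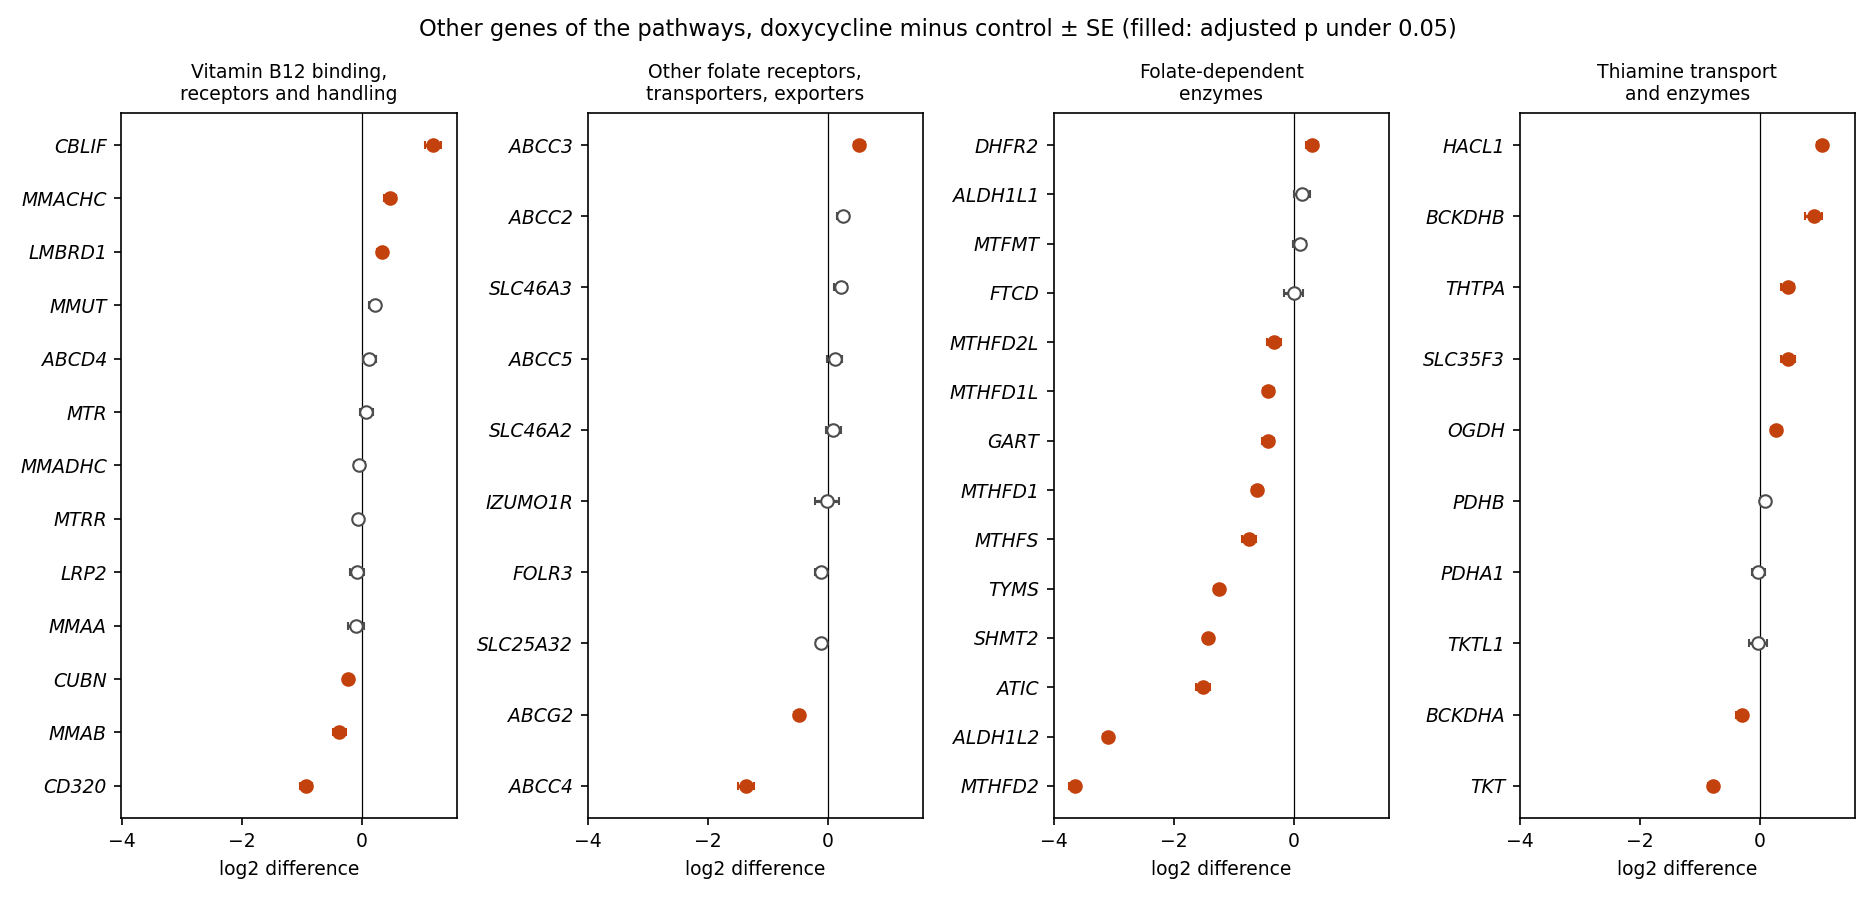
Log2 difference of doxycycline minus control ± SE (horizontal axis) for the 47 measured genes of the 4 pathway lists, with filled points for genes at an adjusted p under 0.05. In the folate enzyme panel 10 of 14 points are filled on the left of 0, and in the vitamin B12 panel filled points lie 3 on either side.

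Chromosomal neighbours were read from the gene order in RefSeq. The nearest measured protein-coding genes on either side of the 10 comprised 18 genes outside the group, of which 4 rose, 4 fell and 10 did not pass, beside the 38.1% called over all probe sets. CBLIF, which is next to TCN1 and of the same family of vitamin B12 binders, read 4.27, 4.40, 4.45 and 3.77 on control arrays 2 to 5 and 3.86 on control array 1, and 5.19 to 5.57 with doxycycline, with no overlap. On the other side of TCN1, beyond 4 genes that were not measured, OOSP2, an egg-expressed secreted protein, had a log2 difference of 0.10 ± 0.11 (adjusted p = 0.53).

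In the folate receptor cluster, FOLR3, FOLR1, FOLR2 and INPPL1 lie in this order. INPPL1, a phosphatase of phosphoinositides, rose (0.72 ± 0.09, adjusted p = 8.85e-06). FOLR2, lower with doxycycline but under the first quartile on every array, thus lies between FOLR1 and INPPL1, which were both higher with doxycycline. SARM1, an NAD-cleaving enzyme beside SLC46A1, fell (-1.07 ± 0.10, adjusted p = 6.37e-07). COL18A1 (-0.33 ± 0.16, adjusted p = 0.114) and PCBP3 (-0.09 ± 0.13, adjusted p = 0.641), on either side of SLC19A1, did not pass.

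The remaining neighbours that rose were the chemokine CCL20 (0.98 ± 0.14, adjusted p = 6.13e-05) and the transcription kinase CDK9 by FPGS (0.31 ± 0.08, adjusted p = 0.00412). CCL20 is the nearest measured gene on its side of SLC19A3, with 3 unmeasured genes between. Those that fell were CCDC181 by SLC19A2 (adjusted p = 0.0351), ENG by FPGS (adjusted p = 0.0061) and the ribosome assembly factor PES1 by TCN2 (adjusted p = 5.26e-04), with log2 differences of -0.42, -0.31 and -0.54. TM4SF20, which lies beyond 6 unmeasured genes from SLC19A3, did not pass, nor did F5, SLC13A2, NKAIN3, TTPA and SLC35E4.

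**Figure D4:**
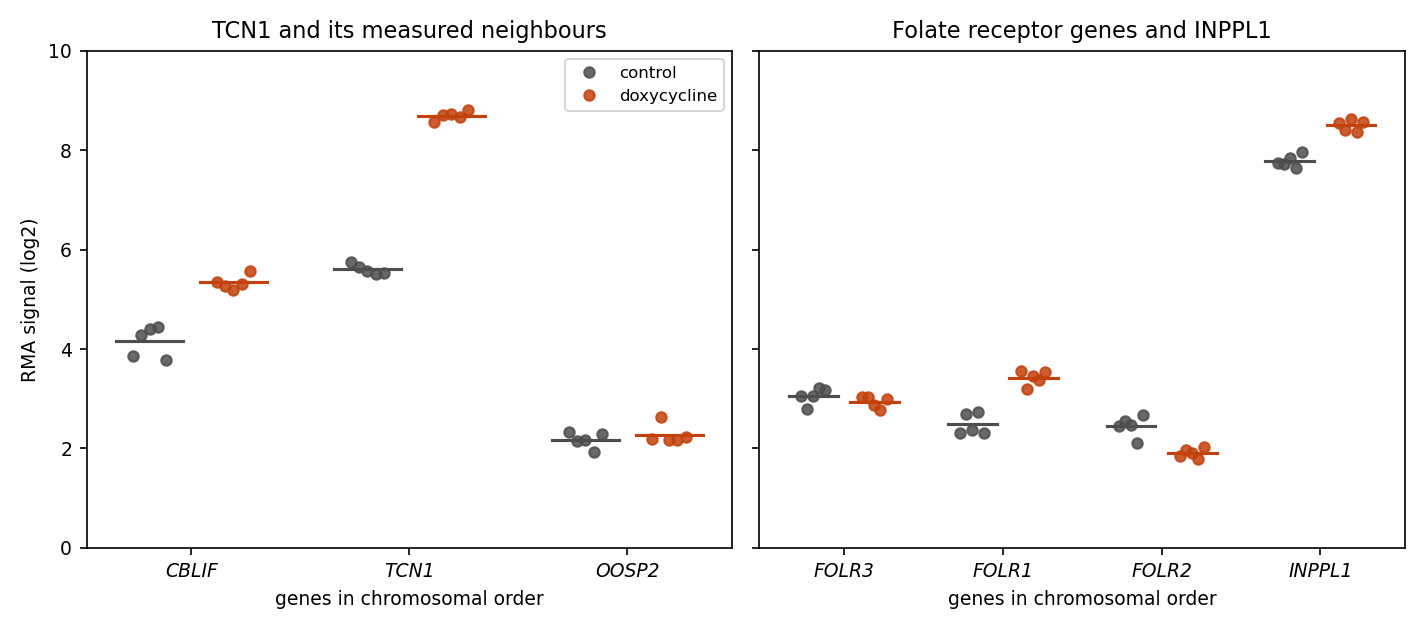
RMA signal (log2, vertical axis) on the 5 control and 5 doxycycline arrays for CBLIF, TCN1 and OOSP2 and for FOLR3, FOLR1, FOLR2 and INPPL1, in chromosomal order, with lines at the group means. CBLIF and TCN1 are both higher with doxycycline, and FOLR1 and FOLR2 move in opposite directions below a signal of 4.

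The genes most like TCN1 and SLC19A1 were ranked by the root mean square, over the 10 arrays, of the difference between both genes after each gene's control mean was subtracted. A similar log2 difference is thus largely built into this measure. Nearest to TCN1 were STC1, a secreted hormone (0.17 log2 units), CHL1, a neural adhesion molecule (0.17), and IFIT1, an antiviral protein (0.18), whose log2 differences were 2.89, 3.06 and 2.98. The control mean of CHL1 was 2.03, below the first quartile of every array. Nearest to SLC19A1 were the ceramide synthase CERS6 (0.30), the elongation factor EEF1A2 (0.31) and TXNIP, an inhibitor of thioredoxin (0.32), with log2 differences of -3.02, -3.14 and -3.18. The doxycycline arrays of SLC19A1 spread more, and its log2 difference (-2.87) was smaller in size than those of these 3 genes. The part of either in the larger distances was not tested.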

How the data were processed

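RNA of 10 samples was measured on 10 arrays, 5 per group. The deposited values are log2 signals of 18569 probe sets made with RMA by the authors, per the submitters' processing notes; which version and filters were used was not given in the sources used here. RMA equalises the arrays, which hides any shift in a cell's total RNA, and differences of dim genes can be compressed. Symbols came from the platform annotation (17511 probe sets with 1 symbol, 0 replaced through RefSeq, 1058 unnamed here). For genes with several probe sets the brightest was used. Doxycycline was compared with control in limma 3.58.1 under R 4.3.3 with lmFit and eBayes (group as the only term, two-sided, Benjamini-Hochberg over all probe sets, no filter), and the model was tested on simulated data. Errors are moderated SEs or SDs over 5 arrays. The number of arrays limits the precision.

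The members and lists were chosen with earlier results of these data known. Named were all 10 genes, up to 4 called genes per list and direction, preset pathway genes, neighbours, the 3 most alike genes, and MYC. OGDH, MTHFD2L, ABCC2, SLC46A3 and the cell type markers were named after their values were seen. So were MMADHC, MTHFD1, SLC46A2, ABCC5 and PDHB, which were named for a far array. Alternatives were filters on dim probe sets, scaling, variance moderation, array weights, the replicate number as a block, a stricter threshold and leaving out each array.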

Additional observations from a re-analysis of the deposited data

Results flagged for a closer look

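In 148 groups of 5 arrays (74 genes described or listed here), 12 had 1 array far from the other 4, by a gap that exceeded 0.71 of the group's range; chance alone flags about 1 group in 20. Among the 10 uptake genes this was 1 of 20 groups: SLC19A2 in control, where array 4 read 6.14 and the next array 6.02. In control, the other far arrays were ABCC4 (7.07), SLC46A2 (2.35) and F5 (2.77) on the high side and ABCC5 (4.24), SLC35F3 (4.28) and CDK9 (8.94) on the low side. With doxycycline they were MMADHC (8.29), MTHFD1 (8.55), SLC13A2 (3.69) and OOSP2 (2.63) on the high side and PDHB (8.51) on the low side.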

How the results depend on the processing

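All 10 uptake genes kept the sign of their difference in every one of the alternatives run for them, TCN1 between 3.06 and 3.13 and SLC19A1 between -3.06 and -2.76 log2 units, and 9 of the 10 kept their call. The exception was SLC19A3, which was called lower (-0.32) without control array 1. These 10 genes were chosen on this same contrast, so their kept calls are a description. The share of all probe sets that kept their call was not computed. Leaving out probe sets under the median signal kept 6 of the 10 genes in the test, of which 5 were called, 3 of them lower; the filter removed SLC19A3, SLC46A1, FOLR1 and FOLR2. Of the 47 pathway genes, 40 kept their call; the calls of CUBN, DHFR2, MTHFD2L and OGDH were lost, and those of ABCC2, MMUT and SLC46A3 were gained, under at least 1 alternative. ABCC2 passed in 7 of 17 (adjusted p = 0.0224 to 0.0412, against 0.0545), and SLC46A3 without control array 4 (adjusted p = 0.0259). MMUT passed when arrays were quantile normalized again (adjusted p = 0.039) or without probe sets under the median (adjusted p = 0.0439). At an adjusted p under 0.01, 5252 probe sets, 8 of the 10 genes and 21 of the 47 were called. With the replicate number as a block these counts were 6476, 8 and 23 at 0.05. Same-numbered arrays did not deviate together (correlations of -0.44 to -0.01). The numbers thus gave no sign of pairing, which a check on 5 arrays per group cannot exclude. Signal near the background limits FOLR1 and FOLR2.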
